A study of Danio rerio with 4 samples.

Results

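The apoptosis genes of the zebrafish retina described here are the caspases, the Bcl2 family, the inhibitor of apoptosis proteins, the TNF receptor superfamily and the proteins that link them. They were chosen by name: every gene of the authors' deposited comparison whose symbol begins with one of a fixed set of stems, such as casp followed by a digit, bcl2, mcl1, bax, birc or tnfrsf. The rule found 68 genes of the 24505 in that table, with 137 transcripts of the 46226 in the tables of single libraries. Gene names are spelled as the authors' table has them, in capitals and with a copy number where it does so.

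Retinas were dissected at 48 hours post fertilization from embryos given the id2a morpholino (2 libraries) or, as the control group, the Id2aMM morpholino (2 libraries). Morpholinos are synthetic antisense molecules that bind an RNA and stop its translation or its splicing, and both groups received one. The labels name no embryo number per library and do not spell out what sets Id2aMM apart from the id2a morpholino. Poly-A RNA was sequenced from 1 microgram of total RNA per condition.

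Apoptosis is run by caspases, proteases that are made as inactive precursors. In the extrinsic route, ligand-bound death receptors of the TNF receptor superfamily recruit the adaptor Fadd, which activates caspase-8. In the intrinsic route, BH3-only proteins such as Puma (the product of bbc3) bind and block guardian proteins of the Bcl2 family, which frees Bax and Bak to open the outer mitochondrial membrane; cytochrome c then assembles with Apaf1 and caspase-9. Both routes end in the effector caspases, and a retina normally loses a share of its young neurons this way.

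Libraries held 42980929 and 54710062 counts in the knockdown, against 50230438 and 53652256 in the control, each count being an alignment of 1 mate to a transcript. Over all tested transcripts, log2 CPM correlated at 0.967 between the knockdown libraries, at 0.967 between the control libraries and at 0.899 to 0.947 between groups. The targeted RNA itself was not lower. The id2a transcript with the smaller p stood at 41.6 and 36.8 CPM (counts scaled to a common library total by the TMM method) in the knockdown and at 32.7 and 20.8 CPM in the control (log2 fold change 0.55, adjusted p = 0.231 in edgeR, SE 0.27). The more abundant id2a transcript was at 84.8 and 70.6 CPM in the knockdown and at 82.3 and 59.5 CPM in the control (log2 fold change 0.13, adjusted p = 0.768 in edgeR, SE 0.24). These levels give no check of the labels, and the kind of block is not stated in the labels. Summed over a list of retinal progenitor markers, 12718 and 13445 CPM were found in the knockdown and 9278 and 9932 CPM in the control. Such sums run over all transcripts, so a read that hits several of them is counted more than once. Marker RNA of several cell types differed between the groups. In the knockdown 33 of 51 tested markers of retinal neurons and 19 of 28 epidermis markers were lower. Of 35 progenitor markers 5 were higher and 1 lower. Over all 20875 tested genes 2.37% were higher and 5.7% lower (edgeR, adjusted p under 0.05). In such bulk RNA, fewer cells of a type and less RNA per cell cannot be told apart.

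The 3 apoptosis genes that changed sit at different points of the pathway. The initiator caspase gene casp8 rose 5.56-fold, the BH3-only gene bbc3 rose 3.58-fold, and the guardian gene bcl2l10 fell by 1.46 on the log2 scale in the knockdown. The other 56 tested members did not pass. Of the 68 members 59 passed the filter on low counts, and 3 of these 59 were called, 2 higher and 1 lower, with edgeR's quasi-likelihood test at an adjusted p under 0.05. Over all 20875 tested genes, 8.06% were called, 2.37% higher and 5.7% lower, so the share among the apoptosis genes was near the background. A gene counts as called if at least 1 of its transcripts passes, and it is described by its transcript with the smallest p. Of the members 12 had an unadjusted p under 0.05, a background of 30.7%, and in 32 of 59 the libraries of the groups did not overlap (background 65.7%), 12 with the knockdown above (31.8%) and 20 with the knockdown below (33.9%). The median log2 fold change was -0.19 over the tested members and -0.06 over all tested genes; with the most abundant transcript of each gene these medians were -0.07 and -0.04.

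**Figure D1:**
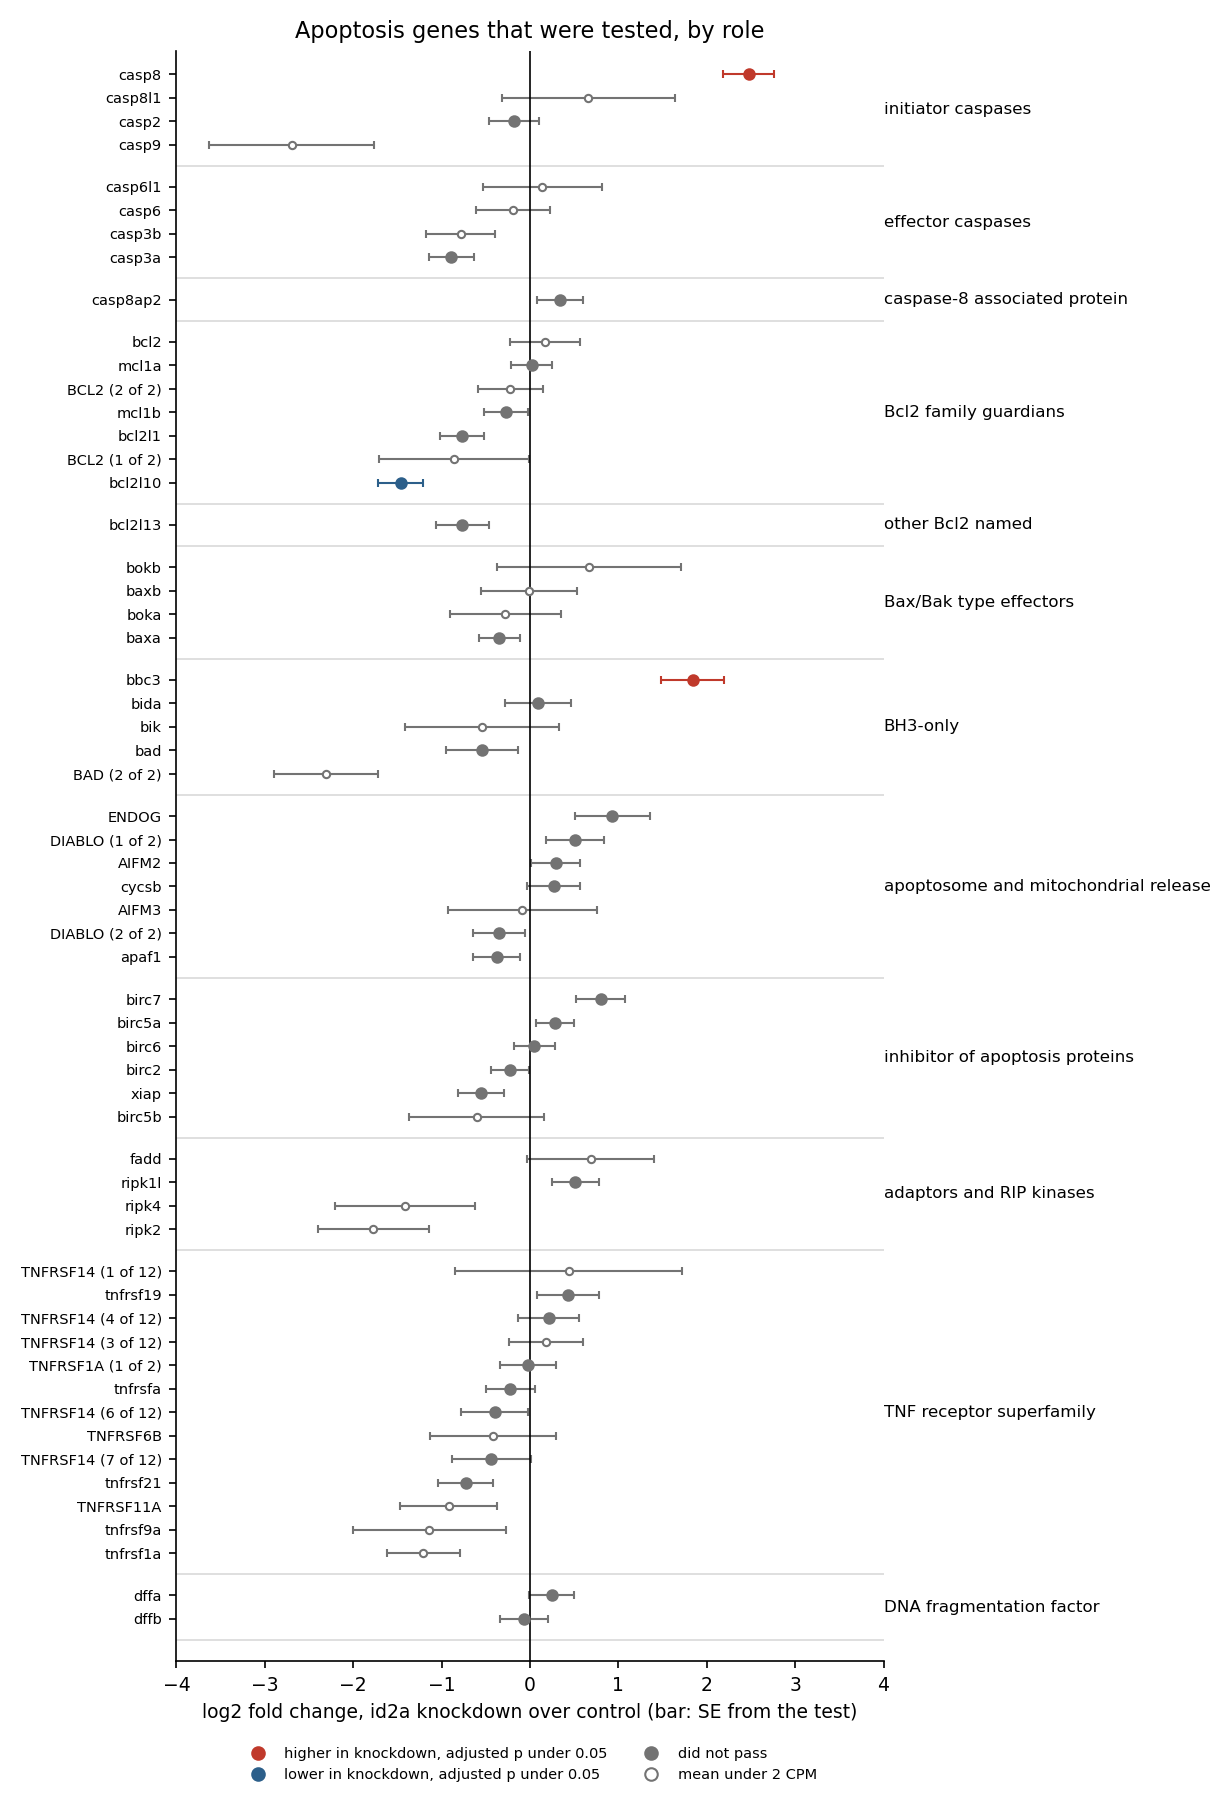
Log2 fold change of the knockdown over the control (horizontal axis) for the tested apoptosis genes reported here, grouped by role, with bars for the SE derived from the test; open points average under 2 CPM. The points for casp8 at 2.47, bbc3 at 1.84 and bcl2l10 at -1.46 are the coloured ones that passed, and each role with more than 1 tested gene has members on both sides of 0.

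Among the initiator caspases, casp8 (ENSDARG00000058325, chromosome 6 in the authors' table) was measured at 19.2 and 13.5 CPM in the knockdown, against 3.03 and 2.84 CPM in the control. Both knockdown values lie more than 4 times above both control values, and the control libraries nearly coincide. The means were 16.3 ± 4.06 CPM in the knockdown and 2.94 ± 0.137 CPM in the control (SD, n = 2 each), a log2 fold change of 2.47 (adjusted p = 0.0160 in edgeR, SE 0.29). Its only transcript kept 100% of its alignments when each was divided over the transcripts it hit, so no other transcript shared its reads. Its neighbour in name casp8l1, a further caspase-8-like gene on the same chromosome, was scarce at 0.119 and 0.290 CPM in the knockdown and 0.0404 and 0.217 CPM in the control, and its groups overlap.

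The other initiators did not pass. Caspase-9, which the apoptosome activates, is encoded by casp9, whose more abundant transcript stood at 0.334 and 1.59 CPM in the knockdown and at 4.17 and 2.75 CPM in the control. All 4 values are separated by group, with knockdown replicate 1 the lowest, yet the log2 fold change of -1.81 (SE 0.63) had an edgeR adjusted p = 0.114. The second casp9 transcript held 1 and 4 counts in the knockdown and 22 and 13 in the control (log2 fold change -2.69, adjusted p = 0.111 in edgeR, SE 0.93). Casp2, a caspase with a long prodomain, had an abundant transcript at 19.5 and 19.1 CPM in the knockdown and at 18.6 and 20.1 CPM in the control, with groups that overlap (log2 fold change -0.01, SE 0.22). Of the 4 tested initiators, edgeR called casp8 alone and DESeq2 called casp8 and casp9. Of all tested genes edgeR called 8.06%, DESeq2 15.9% and limma-voom 9.71%. These shares are also the background for the counts by role below. Casp8ap2, named for binding to caspase-8 and known for a role in histone gene expression, was at 38.2 and 35.3 CPM in the knockdown and 30.2 and 30.4 CPM in the control for its most abundant transcript (log2 fold change 0.28, adjusted p = 0.442 in edgeR, SE 0.21).

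Of 5 tested effector caspases, which cut the cell's proteins, edgeR called 0 (1 had an unadjusted p under 0.05, DESeq2 called 1 and limma-voom 0). The one nearest the threshold was casp3a, the gene for a caspase-3. Its longest transcript stood at 47.4 and 72.9 CPM in the knockdown and at 108.6 and 114 CPM in the control, so the groups are apart and the knockdown libraries differ from each other far more than the controls do. The means of 60.2 ± 18.0 CPM in the knockdown and 111 ± 4.05 CPM in the control (SD, n = 2 each) gave a log2 fold change of -0.89 (adjusted p = 0.0728 in edgeR, SE 0.26). The 3 other casp3a transcripts ranged from -0.77 to -0.72 in log2 fold change. The log2 fold change of casp3a came to -0.59 with knockdown replicate 1 left out and -1.23 without knockdown replicate 2. Each of these fits rests on 1 knockdown library and takes its spread from the controls. The paralog casp3b had log2 fold changes of -0.78 and -0.77 for its 2 transcripts and did not pass. Casp6 and casp6l1 averaged under 2 CPM, and their groups overlap.

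**Figure D2:**
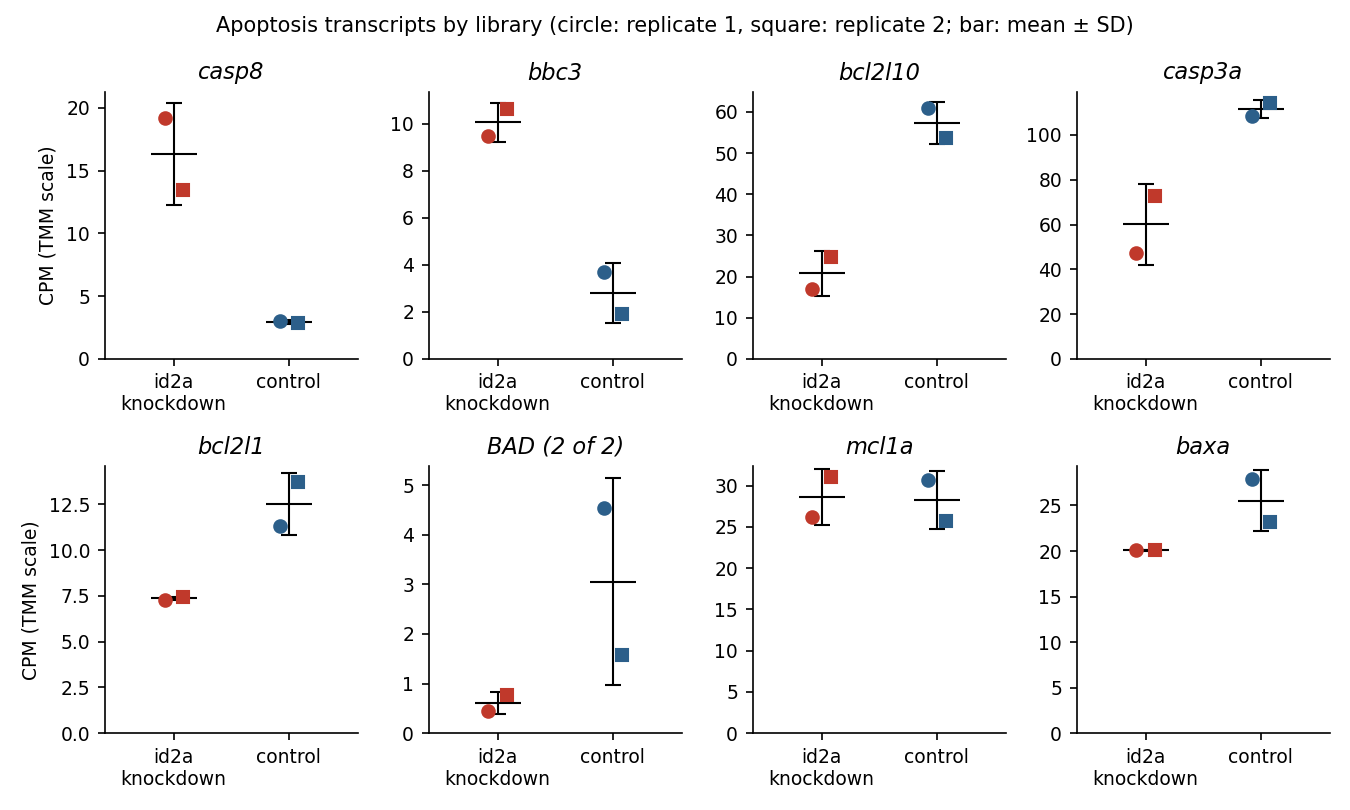
CPM on the TMM scale (vertical axis, from 0) in each library for 8 apoptosis genes, each described by its transcript with the smallest p, with the knockdown at the left and the control at the right of each panel; circles are replicate 1, squares replicate 2, and bars the mean ± SD (n = 2 each). The groups are far apart for casp8 (16.3 against 2.94 CPM on average), bbc3 and bcl2l10, whereas those of mcl1a overlap.

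The guardians of the Bcl2 family hold Bax and Bak in check. Of 7 tested guardian genes, 1 fell, 0 rose and 6 did not pass. The gene that fell, bcl2l10 (ENSDARG00000026766, chromosome 18), is also known in zebrafish as nrz, an anti-apoptotic protein with a described role in calcium release from the endoplasmic reticulum. It stood at 16.9 and 24.7 CPM in the knockdown, against 61.0 and 53.7 CPM in the control. The highest knockdown value is less than the lowest control value by a wide margin, and knockdown replicate 1 is the lower of its group. Means of 20.8 ± 5.50 CPM in the knockdown and 57.3 ± 5.14 CPM in the control (SD, n = 2 each) gave a log2 fold change of -1.46 (adjusted p = 0.0261 in edgeR, SE 0.26). Its 2 annotated transcripts carried identical counts and share every read, so they are 1 measurement.

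Bcl2l1, the gene for the guardian Bcl-xL, was lower in both knockdown libraries without passing. Its 3 transcripts share most of their reads, and the leading one was at 7.30 and 7.41 CPM in the knockdown and at 11.3 and 13.7 CPM in the control (log2 fold change -0.77, adjusted p = 0.0954 in edgeR, SE 0.25). The knockdown libraries almost coincide, and the groups are apart. The 2 Mcl1 genes, short-lived guardians, differed by less than the spread between replicates: mcl1a was at 26.2 and 31.0 CPM in the knockdown and at 30.7 and 25.7 CPM in the control (log2 fold change 0.02, SE 0.23). Mcl1b had an abundant transcript at 232 and 216 CPM in the knockdown and at 271 and 182 CPM in the control, of whose alignment weight 4.50% was left after splitting. The 3 genes named after Bcl2 itself averaged under 2 CPM each, with log2 fold changes of -0.86 to 0.17, and none of the 3 passed.

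Bcl2l13, a mitochondrial outer membrane protein of the family, had its leading transcript at 31.5 and 58.0 CPM in the knockdown and at 80.8 and 71.3 CPM in the control. The groups do not overlap, though knockdown replicate 2 lies nearer to the controls than to its own group's other library. Its log2 fold change of -0.76 (adjusted p = 0.149 in edgeR, SE 0.30) became -0.37 when knockdown replicate 1 was left out and -1.27 without knockdown replicate 2. The latter fit keeps only the knockdown library that is farther from the controls.

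Levels can be set side by side between genes only per length, for which the authors' deposited score was used, 1000 times the RPKM of both mates, for the transcript of each gene with the highest score. On that scale mcl1b ranked 1 among the 68 members, cycsb (cytochrome c) 2, tnfrsf9a 3, casp3a 4 and bcl2l10 7. The score of bcl2l10 was 14270 ± 3938 in the knockdown and 39770 ± 2379 in the control (SD, n = 2 each), next to 19022 ± 2984 and 19178 ± 1518 for mcl1a in the same groups. Bcl2l10 thus scored above mcl1a in both control libraries and below it in both knockdown libraries. Casp8 scored 8633 and 6302 in the knockdown, above casp2 at 5560 and 5420, whereas in the control it scored 1392 and 1397, below casp2 at 7209 and 5881. The order of the values of mcl1b and tnfrsf9a is uncertain, since 4.50% and 4.74% of the weight of their abundant transcripts was left after splitting. The same holds for ripk1l, ranked 6, with 2.57% left, and the rank of bcl2l10 depends on these placements. The score counts hits of both mates and the CPM those of 1 mate, so the ranks need not hold for counts of 1 mate.

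**Figure D3:**
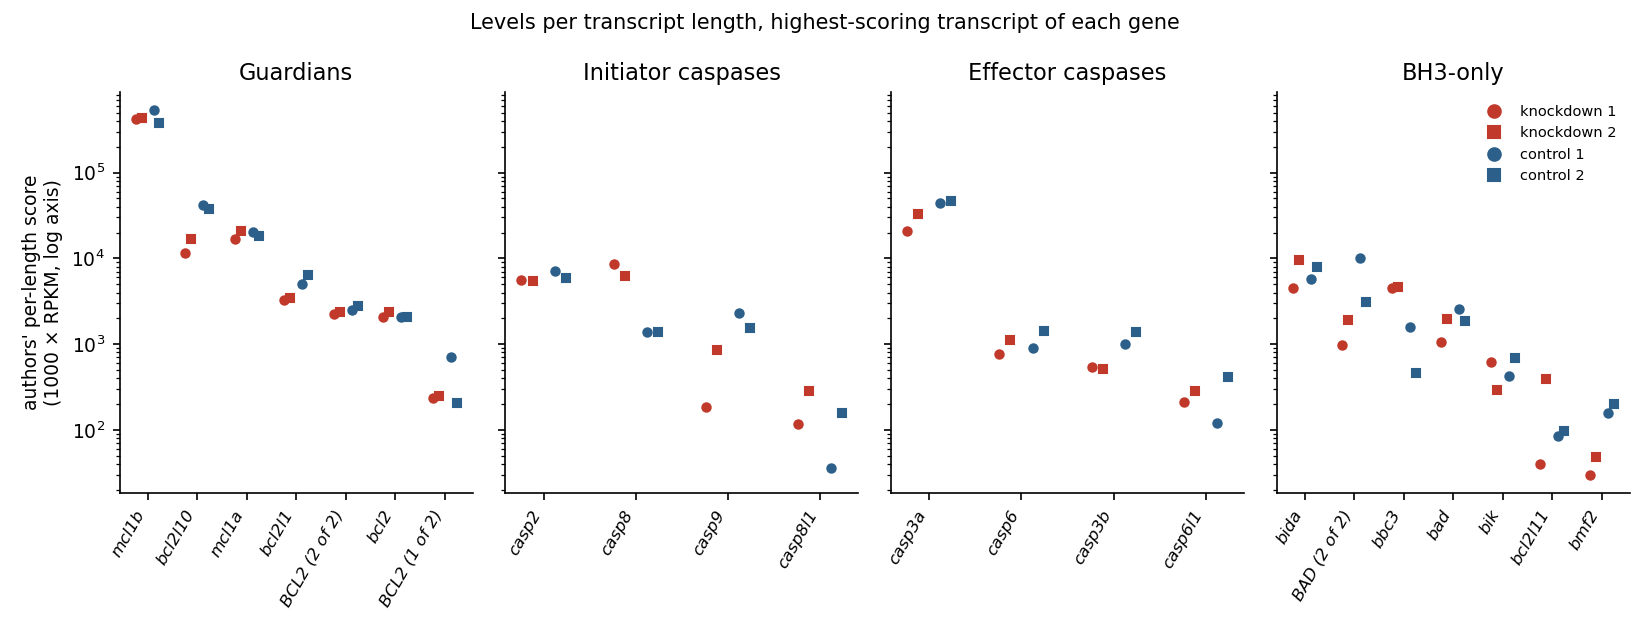
The authors' per-length score (1000 times the RPKM, log axis) of the highest-scoring transcript of the guardian, initiator caspase, effector caspase and BH3-only genes reported here, in each library; red marks are knockdown and blue marks control libraries. Bcl2l10 lies above mcl1a in the control and below it in the knockdown, and casp8 lies above casp2 in the knockdown only.

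BH3-only proteins sense damage and block the guardians. Of 5 tested genes, bbc3 rose and 4 did not pass. Bbc3 (ENSDARG00000069282, chromosome 15) encodes Puma, whose transcription is known to be induced after DNA damage. Its longer transcript was at 9.47 and 10.6 CPM in the knockdown, against 3.70 and 1.92 CPM in the control. The knockdown libraries lie closer to each other on a ratio scale than the control libraries, of which replicate 1 is the higher, and the groups are apart. Means of 10.1 ± 0.827 CPM in the knockdown and 2.81 ± 1.26 CPM in the control (SD, n = 2 each) gave a log2 fold change of 1.84 (adjusted p = 0.0291 in edgeR, SE 0.35). The shorter bbc3 transcript, with 174 and 244 counts in the knockdown and 75 and 24 in the control, had a log2 fold change of 2.14 (adjusted p = 0.0531 in edgeR, SE 0.54). It shares each of its reads with another transcript, keeping 50% of their weight.

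The largest deviation in the opposite direction among BH3-only genes was that of BAD (2 of 2), a copy of the gene for Bad, at 0.453 and 0.761 CPM in the knockdown and at 4.53 and 1.57 CPM in the control. The groups are apart, but the control libraries lie far from each other. Its log2 fold change of -2.31 (SE 0.59) had an edgeR adjusted p = 0.0536, and it became -1.34 without control replicate 1 and -2.88 without control replicate 2. It came to -1.98 without knockdown replicate 1 and -2.74 without knockdown replicate 2. The authors' deposited table gave -2.17 for this gene, and it did not pass there (DESeq adjusted p = 0.441). The other copy, bad, was at 1.46 and 2.57 CPM in the knockdown and at 3.56 and 2.35 CPM in the control, with groups that overlap. Bida, the gene for Bid, which caspase-8 cuts to link the extrinsic to the intrinsic route, was at 3.98 and 8.03 CPM in the knockdown and at 4.81 and 6.49 CPM in the control, an overlap of the groups (log2 fold change 0.09, SE 0.37). Bik stayed under 1 CPM in each library. Bcl2l11 (Bim) and bmf2 were below the filter, with 4 and 8 counts in the knockdown and 3 and 5 in the control for the leading bcl2l11 transcript, and 1 and 2 counts in the knockdown and 5 and 8 in the control for that of bmf2. Pmaip1, the gene for Noxa, was in the tables of single libraries but not in the authors' comparison, and held 0 counts in both knockdown libraries and 0 and 2 in the control libraries.

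Of the 4 tested genes of Bax and Bok, which form the pore in the mitochondrial membrane, edgeR called 0 (0 had an unadjusted p under 0.05, DESeq2 called 0 and limma-voom 0). Baxa, the abundant one, was at 20.1 and 20.1 CPM in the knockdown and at 27.9 and 23.2 CPM in the control (log2 fold change -0.34, adjusted p = 0.371 in edgeR, SE 0.23). Both knockdown values were below both control values. Baxb, boka and bokb averaged under 1 CPM, and BAX (2 of 2) was below the filter with 1 and 2 counts in the knockdown and 0 in both control libraries. No gene named bak was found by the rule in the authors' table.

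Downstream of the mitochondria, edgeR called 0 of 7 tested genes (0 had an unadjusted p under 0.05, DESeq2 called 0 and limma-voom 0). Cycsb, the cytochrome c gene, was at 134 and 85.3 CPM in the knockdown and at 71.5 and 111 CPM in the control, so the spread within each group exceeds the difference between them. Apaf1, the scaffold of the apoptosome, was at 7.94 and 11.2 CPM in the knockdown and at 12.2 and 12.7 CPM in the control (log2 fold change -0.38, SE 0.26). ENDOG, a mitochondrial nuclease, was at 6.01 and 3.04 CPM in the knockdown and at 1.74 and 2.98 CPM in the control. Its groups are barely apart (log2 fold change 0.93, adjusted p = 0.202 in edgeR, SE 0.43). Without knockdown replicate 2, which leaves only the higher knockdown library, the log2 fold change was 1.35. The Diablo genes, whose product relieves caspases from inhibition, had log2 fold changes of 0.03 and 0.00 for their most abundant transcripts. The first of these, of DIABLO (1 of 2), had 7.29% of its alignment weight left after splitting. Other transcripts of DIABLO (1 of 2) ranged from 0.02 to 0.51, and that of DIABLO (2 of 2) was at -0.35. None of them passed. AIFM2 was at 13.0 and 13.5 CPM in the knockdown and at 8.55 and 13.1 CPM in the control. The DNA fragmentation factor genes dffa and dffb, an inhibitor and its nuclease, had log2 fold changes of 0.25 (SE 0.26) and -0.07 (SE 0.27).

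The inhibitor of apoptosis proteins bind caspases or control cell division. Of 6 tested genes edgeR called 0 (1 had an unadjusted p under 0.05, DESeq2 called 0 and limma-voom 0). The one with the smallest p was birc7, at 6.94 and 8.97 CPM in the knockdown and at 4.17 and 4.96 CPM in the control, with groups that are apart (log2 fold change 0.80, adjusted p = 0.111 in edgeR, SE 0.28). Xiap, which binds and blocks caspases directly, was at 4.15 and 3.91 CPM in the knockdown and at 5.72 and 6.11 CPM in the control (log2 fold change -0.55, adjusted p = 0.222 in edgeR, SE 0.27). The groups do not overlap for either gene. Birc5a, a survivin gene with a role in chromosome segregation, was at 34.5 and 32.6 CPM in the knockdown and at 25.6 and 29.4 CPM in the control (log2 fold change 0.28, SE 0.22). The very large inhibitor gene birc6 and the ubiquitin ligase gene birc2 had log2 fold changes of 0.05 (SE 0.23) and -0.23 (SE 0.22).

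At the receptor end, 18 members carry a TNF receptor superfamily name, 13 were tested and edgeR called 0 (2 had an unadjusted p under 0.05, DESeq2 called 0 and limma-voom 0). Those 2 were tnfrsf1a, the gene for a TNF receptor with a death domain, and tnfrsf21, the gene for death receptor 6. Tnfrsf1a was at 0.787 and 0.979 CPM in the knockdown and at 2.22 and 1.86 CPM in the control (log2 fold change -1.20, adjusted p = 0.109 in edgeR, SE 0.41). Tnfrsf21 was at 2.19 and 2.81 CPM in the knockdown and at 4.004 and 4.30 CPM in the control (log2 fold change -0.73, adjusted p = 0.171 in edgeR, SE 0.31). In both genes each knockdown library is below each control library. A further entry of the first name, TNFRSF1A (1 of 2), was at 2.53 and 3.12 CPM in the knockdown and at 2.85 and 2.89 CPM in the control. Its groups overlap (log2 fold change -0.02, adjusted p = 0.973 in edgeR, SE 0.32). The TNFRSF14 copies lie on chromosome 8 in the authors' deposited table, and most of them share reads. Of the 5 receptor genes below the filter, 4 are TNFRSF14 copies and 1 is TNFRSF25, with at most 8 counts in any library. The 11 receptors tested besides tnfrsf1a and tnfrsf21 had log2 fold changes between -1.14 for a scarce transcript of tnfrsf9a and 0.44 for TNFRSF14 (1 of 12), with -0.92 for TNFRSF11A, an osteoclast receptor in mammals. Among the TNFRSF14 copies the most abundant, TNFRSF14 (4 of 12), was at 8.87 and 10.98 CPM in the knockdown and at 8.47 and 11.05 CPM in the control. Tnfrsf9a had a more abundant transcript at 35.7 and 33.4 CPM in the knockdown and 47.0 and 29.4 CPM in the control (log2 fold change -0.14, SE 0.27).

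Between receptor and caspase, fadd was scarce, with 0.286 and 0.326 CPM in the knockdown and 0.162 and 0.217 CPM in the control (log2 fold change 0.69, SE 0.71). Of 4 tested adaptor and RIP kinase genes edgeR called 0 (1 had an unadjusted p under 0.05, DESeq2 called 0 and limma-voom 0). That one was ripk2, a kinase of innate immune signalling, at 0.310 and 0.453 CPM in the knockdown and at 0.728 and 1.90 CPM in the control (log2 fold change -1.77, adjusted p = 0.116 in edgeR, SE 0.62). Its log2 fold change was -0.92 without control replicate 2. Ripk1l was at 53.9 and 47.1 CPM in the knockdown and at 43.1 and 27.8 CPM in the control (log2 fold change 0.51, adjusted p = 0.255 in edgeR, SE 0.27), with 2.57% of its alignment weight left after splitting. Ripk4, a kinase of the epidermis in mammals, was under 1 CPM in each library, and ripk3l was below the filter with 9 and 0 counts in the knockdown and 3 and 0 in the control.

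Without control replicate 1 the edgeR adjusted p was 0.159 for casp8, 0.159 for bbc3 and 0.160 for bcl2l10, and without control replicate 2 it was 0.0515 for casp8, 0.0847 for bbc3 and 0.0668 for bcl2l10. No sign changed: over 13 alternatives the log2 fold change ranged from 2.22 to 2.71 for casp8, from 1.44 to 2.41 for bbc3 and from -1.76 to -1.20 for bcl2l10. Each gene passed in all 9 alternatives that keep the 4 libraries and the threshold. Beside these 3, the members called were BAD (2 of 2) with RLE scaling and with split reads (4 members each, with 9.11% and 12.1% of all genes), and BAD (2 of 2), casp3a and casp9 with DESeq2 and with no filter (6 each, 15.9% and 12.1%), all of them lower. With limma-voom, a stricter filter, both mates and reads summed per gene the count was 3 members, with 9.71%, 10.4%, 8.04% and 3.89% of all genes. Without knockdown replicate 1 it was 4 members (6.07%) and without knockdown replicate 2 it was 8 (14.1%), where these were joined by ENDOG, bcl2l13, casp3a, casp9 and BAD (2 of 2). Leaving out either knockdown library ended none of the 3 calls. With control replicate 1 left out edgeR called 0 of 21589 genes (5420 at an unadjusted p under 0.05), the smallest adjusted p of any gene being 0.0778, so that fit could call no member; without control replicate 2 it called 259 genes (1.21%). In the authors' deposited table, casp8 had a log2 fold change of 2.48 (DESeq adjusted p = 1.08e-05), the longer bbc3 transcript of 1.86 (DESeq adjusted p = 0.000716) and bcl2l10 of -1.44 (DESeq adjusted p = 6.33e-05). The authors' deposited table called 6 of 131 member transcripts, 3 higher and 3 lower, against 8.89% of all its transcripts (3.2% higher and 5.69% lower), including the longest casp3a transcript (log2 fold change -0.84, DESeq adjusted p = 0.0423). The other casp3a transcripts did not pass there (DESeq adjusted p = 0.0865 to 0.121). Neither did casp9 (DESeq adjusted p = 0.0951 and 0.224), ENDOG (0.491), BAD (2 of 2) (0.441) or bcl2l13 (0.194 to 0.699).

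**Figure D4:**
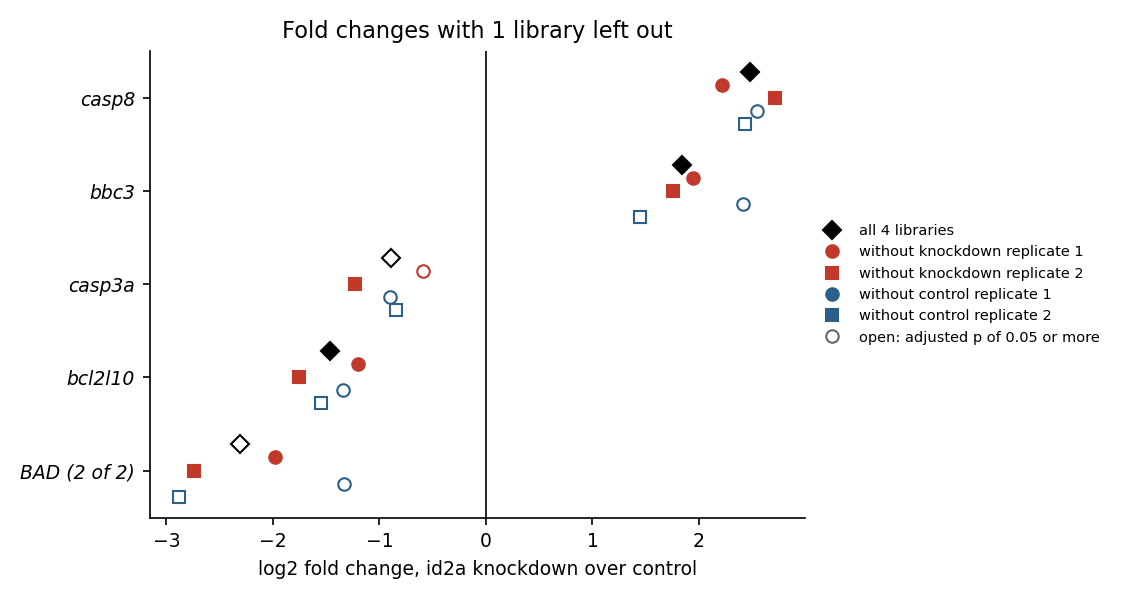
Log2 fold change of the knockdown over the control (horizontal axis) for casp8, bbc3, casp3a, bcl2l10 and BAD (2 of 2), with all 4 libraries (diamonds) and with 1 library left out (red: a knockdown library, blue: a control library); filled marks have an adjusted p under 0.05. No mark crosses 0, and the marks without a control library are open for all 5 genes.

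Marker RNA of epidermis and of retinal neurons also differed between the groups. Summed over the epidermis list, 2034 and 831 CPM were found in the knockdown and 6390 and 6853 CPM in the control, and summed over the retinal neuron list 733 and 1981 CPM in the knockdown and 6077 and 4207 CPM in the control. In the knockdown, the epidermis sum was lower in replicate 2 and the neuron sum in replicate 1. Bcl2l10, casp3a, bcl2l13, casp9 and BAD (2 of 2) were each lower in knockdown replicate 1 than in knockdown replicate 2. So were bbc3, which rose, and bida, mcl1a, birc6 and apaf1, which did not pass. Casp8, cycsb and ENDOG were higher in knockdown replicate 1. Among genes below both control libraries without passing, xiap (4.15 and 3.91 CPM in knockdown replicates 1 and 2), casp3b (1.55 and 1.18 CPM), ripk4 and boka were higher there too. These genes were picked by their values, and the share of all genes with either order was not counted. None of the 30 epidermis genes was at 0 in both knockdown libraries, and the keratin gene krt4 was at 197 and 52.7 CPM in the knockdown, against 647 and 620 CPM in the control, and of 52 neuron genes 1, opn1sw1, was at 0 in both knockdown libraries. Of 35 tested leukocyte markers 4 were lower and 0 higher, against 5.7% lower and 2.37% higher of all tested genes. Sums over this list were 347 and 304 CPM in the knockdown and 387 and 297 CPM in the control. C1qb was at 0 in both knockdown libraries and grn1 at 0 in both control libraries. The median log2 fold change of this list was -0.99, against -0.06 over all tested genes. Both knockdown values lay below both control values in 21 of the 35 and above them in 1 (background 33.9% and 31.8%). The sums alone therefore do not describe the list. The part of these cells in the changes of the apoptosis genes was not tested.

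Further apoptosis genes outside the naming rule were taken from a separate list. Of its 92 tested genes 5 passed, 2 higher and 3 lower, and all 5 were among the 61 genes that are not HTRA2 copies, which made up 31 of the 92. The share that passed was 5.43% of the list, against 8.06% of all tested genes. The HTRA2 copies, of which 0 passed, lower this share, and without them 5 of 61 genes passed. Pycard, the adaptor of inflammatory caspases, was at 0.549 and 0.254 CPM in the knockdown and at 3.90 and 4.74 CPM in the control (log2 fold change -3.45, adjusted p = 0.0203 in edgeR, SE 0.46). Its partner caspb, an inflammatory caspase of zebrafish, was at 0.954 and 0.272 CPM in the knockdown and at 7.22 and 2.44 CPM in the control (log2 fold change -3.005, adjusted p = 0.0439 in edgeR, SE 0.69). In both genes knockdown replicate 2 was the lowest library, as it was for the epidermis sum, and the part of epidermis was not tested. FAIM2, the gene for a neuronal inhibitor of Fas signalling, also fell (log2 fold change -2.22, SE 0.50). The median log2 fold change of the retinal neuron markers was -2.11, and the part of neurons in the fall of FAIM2 was not tested. SIVA1 and dap3, which encode a pro-apoptotic protein and a mitochondrial ribosome protein linked to cell death, had log2 fold changes of 1.103 (SE 0.24) and 1.25 (SE 0.25), and both rose. Without the HTRA2 copies the median of this list was -0.14 (61 genes), with them 0.32 (92 genes), and over all tested genes -0.06.

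In a list of the p53 pathway, which is known to switch on bbc3 after damage, 8 of 50 tested genes rose, 3 fell and 39 did not pass. Over all tested genes 2.37% rose and 5.7% fell. The list genes described below all rose, and the 3 that fell are not named. The part of this pathway in the rise of bbc3 was not tested. The cyclin gene ccng1 was at 136 and 124 CPM in the knockdown and at 12.3 and 20.0 CPM in the control (log2 fold change 3.005, adjusted p = 0.0120 in edgeR, SE 0.29). The cyclin-dependent kinase inhibitor gene cdkn1a was at 25.6 and 16.4 CPM in the knockdown and at 3.22 and 2.30 CPM in the control (log2 fold change 2.93, adjusted p = 0.0157 in edgeR, SE 0.33). For both genes every knockdown library lies far above every control library. Among the others that rose were RPS27L (log2 fold change 3.06, SE 0.24) and the sestrin gene sesn3 (log2 fold change 1.59, SE 0.27). Members of the apoptosis rule (bbc3, baxa and baxb) were taken out of this list before counting.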

How the data were processed

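Per the file names, the authors used bowtie against cDNA sequences from Ensembl release 66; the genome build and the software versions were not given in the sources used here. Tables the authors deposited hold whole-number counts of alignments per transcript, 1 mate or both, each hit counted in full (1.89 to 2.01 hits per read), and estimated counts with each read split over its hits, per the file headers. The deposited whole-series table holds a score: with lengths solved from the same values, 98.8% to 99.7% of values lay within 1 unit of 1000 times the RPKM. The authors' deposited comparison gives these scores with log2 fold changes and adjusted p-values, made with DESeq per the submitters' processing notes.

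Counts of 1 mate entered edgeR 4.0.16 under R 4.3.3 (low counts filtered by filterByExpr, TMM scaling, quasi-likelihood F-test, Benjamini-Hochberg adjustment over all tested transcripts, threshold 0.05). A transcript missing from a library's table was given 0 counts. The SE is the absolute log2 fold change over the square root of F. Alternatives used DESeq2 1.42.0 and limma 3.58.1, and the methods were tested on simulated data. With 2 libraries a group, an exact permutation test of single values cannot go below 0.333. P-values measure the spread between these libraries only.

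The members and lists were chosen with earlier results of these data known. The rule for naming took called members, the 2 most abundant of each role, the 5 highest and 5 lowest log2 fold changes among members averaging at least 2 CPM, and up to 6 called genes a list. Other members, krt4 and all of the marker genes at 0 were named after their values were seen, and the marker lists are otherwise given by counts and sums. Results for some genes that the rule names are not reported here, though counts and sums over roles and lists include them.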

Additional observations from a re-analysis of the deposited data

How the results depend on the processing

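The counts of apoptosis genes changed and lower (3 and 1) became 6 and 4 with DESeq2, with no filter and at a threshold of 0.10, and 5 and 3 with the replicate block (2324 of 20875 genes changed); the count lower was 2 with RLE scaling and 2 with split reads; at 0.01 the counts changed, higher and lower were 0, 0 and 0 in edgeR (12 members at an unadjusted p under 0.05). The labels do not say whether the replicate numbers pair the libraries across groups. The difference between replicates 1 and 2 of the knockdown correlated at -0.0196 with that of the control across tested transcripts.

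Over all genes, 1683 changed, 494 higher and 1189 lower; these counts were 3313, 1301 and 2012 with DESeq2, 3176, 1115 and 2061 with no filter, 828, 208 and 620 with reads summed per gene, 3812, 1417 and 2395 at 0.10, and 7, 2 and 5 at 0.01; split reads gave 805 higher. Counts for the further apoptosis, p53 pathway, leukocyte and progenitor lists (5, 11, 4 and 6) became 10, 20, 8 and 15 with DESeq2, 10, 19, 8 and 11 with no filter, 12, 19, 8 and 14 at 0.10, and 0, 2, 0 and 0 at 0.01. The further apoptosis list gave 8 with both mates, 10 with split reads and 2 with reads summed per gene, and the progenitor list 10 with split reads. The epidermis and retinal neuron lists (19 and 33) gave 12 and 19 with reads summed per gene, and 0 and 3 at 0.01.

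With 1 library left out, counts ranged from 0 to 8 for apoptosis genes changed, 0 to 3 higher and 0 to 5 lower, from 0 to 3056, 0 to 1013 and 0 to 2043 for all genes, and from 0 to 8, 0 to 16, 0 to 6, 0 to 25, 0 to 43 and 0 to 8 for the further apoptosis, p53 pathway, leukocyte, epidermis, neuron and progenitor lists. Such a fit takes the spread of the single library left from the other group. Without control replicates 1 and 2, 8 and 11 members had an unadjusted p under 0.05 in edgeR.

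Signs turned in 16 of the genes described (TNFRSF1A (1 of 2) was not followed), and none of these 16 passed. Each was followed by its transcript with the smallest p. For mcl1b, casp2 and TNFRSF14 (4 of 12) that is not the transcript whose CPM are given above. Other transcripts of a gene are not counted here. The log2 fold change of baxb was 0.0123 with RLE scaling, 0.0136 with DESeq2 and 0.0486 with split reads, that of mcl1a was -0.0089 with a stricter filter, and that of casp6l1 was -0.050 with both mates. With 1 library left out the range was -0.44 to 0.43 for baxb, -0.50 to 0.53 for bida, -0.54 to 0.085 for mcl1b, -0.10 to 0.18 for mcl1a, -0.20 to 0.10 for dffb, -0.16 to 0.52 for TNFRSF14 (4 of 12), -0.49 to 0.99 for TNFRSF14 (1 of 12), -0.074 to 0.62 for cycsb, -0.16 to 0.26 for birc6, -0.37 to 0.068 for casp2, -0.12 to 2.29 for casp8l1, -2.02 to 0.23 for bik, -0.22 to 4.14 for bokb, -1.55 to 0.52 for BCL2 (1 of 2), -0.54 to 0.11 for casp6 and -0.38 to 1.05 for casp6l1. The causes were not tested. Transcripts under 2 CPM, 24 of 59 tested members, have the widest errors.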
